A study of Citrullus lanatus with 26 samples.

Results

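Small RNA from the flesh of watermelon fruit was compared between 2 genotypes at 10 DAP, the unit of fruit age used in the labels. The accession PI296341FR, labelled as Citrullus lanatus germplasm, was set against Citrullus lanatus subsp. vulgaris cv. 97103, with 2 libraries of each. These 4 libraries were chosen by their titles, and the whole series holds 26. In the rest of the series the same genotypes were also sampled at 30 DAP (2 libraries each), and 97103 was followed over fruit age in a separate set of 18 libraries. No treatment or transgene is labelled for any group, and all the tissue is flesh. Separate plants or fruits are not labelled for the replicates, so a p-value here speaks of library-to-library spread, part or all of which may be technical.

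Plant miRNAs are short guide RNAs that direct Argonaute proteins to matching mRNAs, which are then cut or kept from translation. Many families are old and nearly identical in sequence between species, and several of them act on transcription factors that set organ identity, growth and ripening in fleshy fruit. Others answer to the supply of copper, sulphate or phosphate. The tables list each miRNA by a species prefix and a family number, for example cme for melon, so that 1 watermelon molecule can appear under many species' names.

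Because of this the 1263 listed names of the 2 genotypes hold only 428 distinct patterns of counts within a family, and 1 name per pattern was kept. The distinct names belong to 30 numbered families and 5 predicted novel_mir names. Many remained near copies of each other: joined where counts lay within 0.1 on the log2 scale in every library, they form 137 profiles. Names of a family are therefore not independent, and a count of names is not a count of molecules. Totals over the distinct names were 4594729 and 4339782 counts in the 97103 libraries and 638600 and 2257245 in the PI296341FR libraries, and with 1 name per profile 462983, 317868, 122791 and 319856. Levels below are CPM, counts of the reduced table scaled to library depth with trimmed-mean (TMM) factors, in the order replicate 1, replicate 2. Fold changes are log2 values of PI296341FR over 97103 with their standard errors (SE).

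By edgeR's quasi-likelihood test 1 of 427 tested names passed a Benjamini-Hochberg adjusted p of 0.05, which is 0.234% of those tested, and it was higher in PI296341FR. Without adjustment 29 names (6.79%) had a p under 0.05, of which 25 were higher (5.85%) and 4 lower (0.937%). The higher ones were the 12 names of miR390, the 6 of miR408, 2 of miR2911, and 1 name each of miR6300, miR1310, miR5139, miR319 and novel_mir_57. The lower ones belonged to miR396, miR156 and miR157. The median over all tested names was 0.23.

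gma-miR6300 was the name that passed. Sequences were not analysed, so whether this name stands for a miRNA or a fragment of another RNA was not tested. It stood at 113 and 101 CPM in 97103 and at 5008 and 2959.8 CPM in PI296341FR, so both PI296341FR libraries lay far above both 97103 libraries, which were close to each other. In raw counts it had 411 and 683 against 3760 and 7491, although the PI296341FR libraries were the shallower ones. The log2 fold change was 5.21 (SE 1.18, edgeR adjusted p = 0.0044). The call rested on all 4 libraries: leaving out any of them ended it, with adjusted p-values of 0.0736 to 0.426 and values of 4.79 to 5.54. It also ended when all copies were kept (4.96, adjusted p = 0.0789), with 1 name per profile (4.10, adjusted p = 0.126) and with 1 name per family (4.95, adjusted p = 0.352).

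The names of miR2911, a family known as fragments of ribosomal RNA rather than products of a miRNA precursor, lay higher in PI296341FR as well and serve here as a sign of RNA quality. nta-miR2911 stood at 6733 and 872 CPM in 97103 and at 62584 and 31945 CPM in PI296341FR. It was thus 7.72-fold apart between the 97103 replicates, and still both PI296341FR libraries lay above them (3.64, SE 1.47, edgeR adjusted p = 0.297). han-miR2911 was at 6198 and 618 against 16892 and 6276 CPM. peu-miR2911 had 1 count in each 97103 library and 9 and 14 in PI296341FR, a ratio of 36.3 with an exact 95% counting interval of 8.98 to 318 (adjusted p = 0.0533).

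All 3 miR2911 names were therefore higher in both PI296341FR libraries, beside 26.0% of all names tested, and none passed the adjusted threshold in the fit reported. Both nta-miR2911 and peu-miR2911 were called with RLE factors, without factors, by DESeq2 and in a fit of the 4 libraries alone. Between the 2 groups the level of these fragments and the genotype cannot be told apart, and the part of the fragments in the other differences was not tested. han-miR1310 was also higher in both PI296341FR libraries, at 5.51 and 6.08 CPM in 97103 and 141 and 63.6 CPM in PI296341FR (4.13, SE 1.34, edgeR adjusted p = 0.16). Like nta-miR2911, han-miR1310 was called with RLE factors, without factors, by DESeq2 and in a fit of the 4 libraries alone. rgl-miR5139 was at 2.20 and 3.12 against 20.0 and 12.6 CPM (2.58, SE 1.20), on 8 to 32 counts per library.

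**Figure D1:**
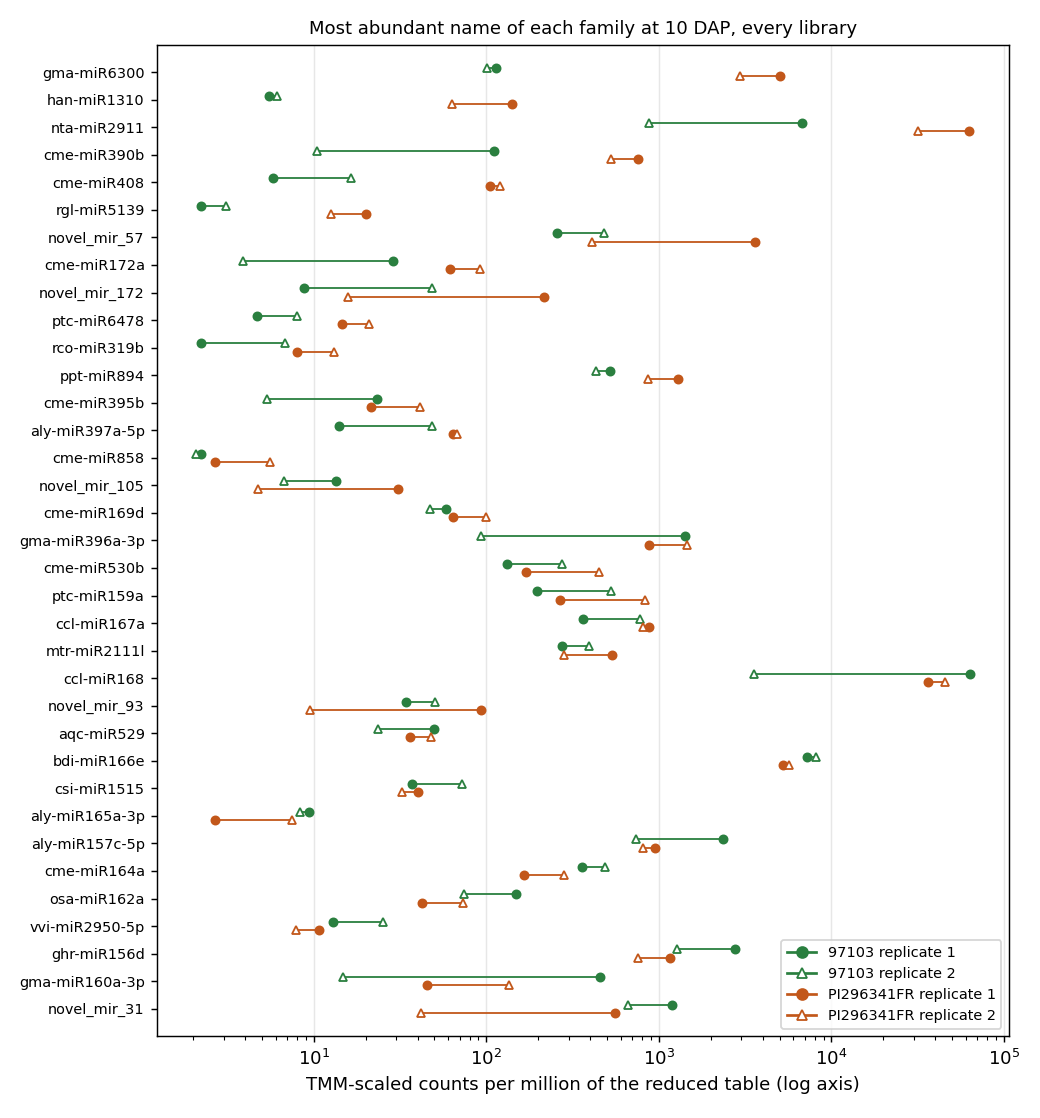
Level of the most abundant name of each family and of the 5 novel_mir names in the 4 libraries at 10 DAP, as TMM-scaled CPM on a log axis, with green for 97103 and orange for PI296341FR, circles for replicate 1 and triangles for replicate 2. The names are ordered by log2 fold change, and the pairs of gma-miR6300 (113 and 101 CPM against 5008 and 2959.8) stand clear of each other, while those of ccl-miR168 in 97103 span 63515 to 3572.

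Among the auxin families, miR390 had the largest log2 fold changes. In Arabidopsis it loads into AGO7 and starts the cutting of TAS3 transcripts into small RNAs that act on auxin response factors. Its most abundant name, cme-miR390b, stood at 111 and 10.4 CPM in 97103 and at 754 and 531 CPM in PI296341FR. Both PI296341FR libraries were higher, but the 97103 replicates themselves were 10.7-fold apart. The log2 fold change was 3.40 (SE 1.27, edgeR adjusted p = 0.209), and the 12 distinct names, which stand for 46 listed names and 5 profiles, ran from 3.40 to 3.65. csi-miR390, the pattern shared by 15 listed names, was at 3.65 (SE 1.28, adjusted p = 0.16).

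Whether miR390 passed depended on the settings. All 12 names were called with RLE factors, without scaling factors, by DESeq2 and in a fit of the 4 libraries alone, and none in the fit reported. Without replicate 1 of 97103 csi-miR390 stood at 6.33 (adjusted p = 0.0587), and without replicate 2 of 97103 at 3.11 (adjusted p = 0.752). The size of this difference thus depends on which 97103 library is taken.

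The other auxin families did not set the genotypes apart in this way. miR167, which acts on the auxin response factors ARF6 and ARF8 in Arabidopsis, split into 2 kinds. ccl-miR167a stood at 363 and 776 against 876 and 806 CPM, and cme-miR167b at 423 and 909 against 396 and 547 CPM, values of 0.56 (SE 1.03) and -0.50 (SE 1.08). With 1 name per profile they stood at -0.80 and -1.86. Of the 39 distinct miR167 names 18 had both PI296341FR libraries above both 97103 libraries, beside 26.0% of all names tested. They lie in the profiles of ccl-miR167a, cme-miR167d and cme-miR167c, beside 35.3% of all profiles separated upwards. gma-miR160a-3p stood at 456 and 14.7 CPM in 97103, a 31.0-fold gap between replicates, with 45.3 and 136 CPM in PI296341FR between them. The miR160 family acts on the repressive auxin response factors, but both distinct miR160 names tested carry a -3p arm suffix. That action is not assigned to this arm here. Of the list of auxin families as a whole, 53 names of 3 measured families, 0 passed edgeR's adjusted threshold, 12 had an unadjusted p under 0.05, all of them miR390, and the median was 0.60.

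Of the copper families, the miR408 names had both PI296341FR libraries above both 97103 libraries, without passing the test, and for miR397 the direction depended on the scaling. miR408 acts on plantacyanin and laccase mRNAs and miR397 on laccases, and both accumulate when copper is scarce. cme-miR408 stood at 5.79 and 16.3 CPM in 97103 and at 105 and 120 CPM in PI296341FR, so the PI296341FR libraries agreed closely and lay above both others. Its raw counts were 21 and 110 against 79 and 304. The log2 fold change was 3.34 (SE 1.29, edgeR adjusted p = 0.26), and the 6 distinct names ran from 3.09 to 3.34.

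DESeq2 called 2 of the 6 miR408 names, among them cme-miR408 (3.38, adjusted p = 0.0322). With 1 name per profile cme-miR408 stood at 1.93 (adjusted p = 0.462). For miR397 the representative aly-miR397a-5p was at 14.1 and 48.5 against 63.9 and 68.0 CPM, a value of 1.07 (SE 1.21, adjusted p = 0.749). With 1 name per profile the miR397 median was -0.38, so no direction is given for this family. All 9 names of the list had both PI296341FR libraries above both 97103 libraries, beside 26.0% of all names. Near copies make up this count too, as the 9 names form 6 profiles, beside 35.3% of all profiles separated upwards. Of the 9 names 0 passed edgeR's adjusted threshold, with 6 at an unadjusted p under 0.05. miR398 and miR857 were not analysed here.

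**Figure D2:**
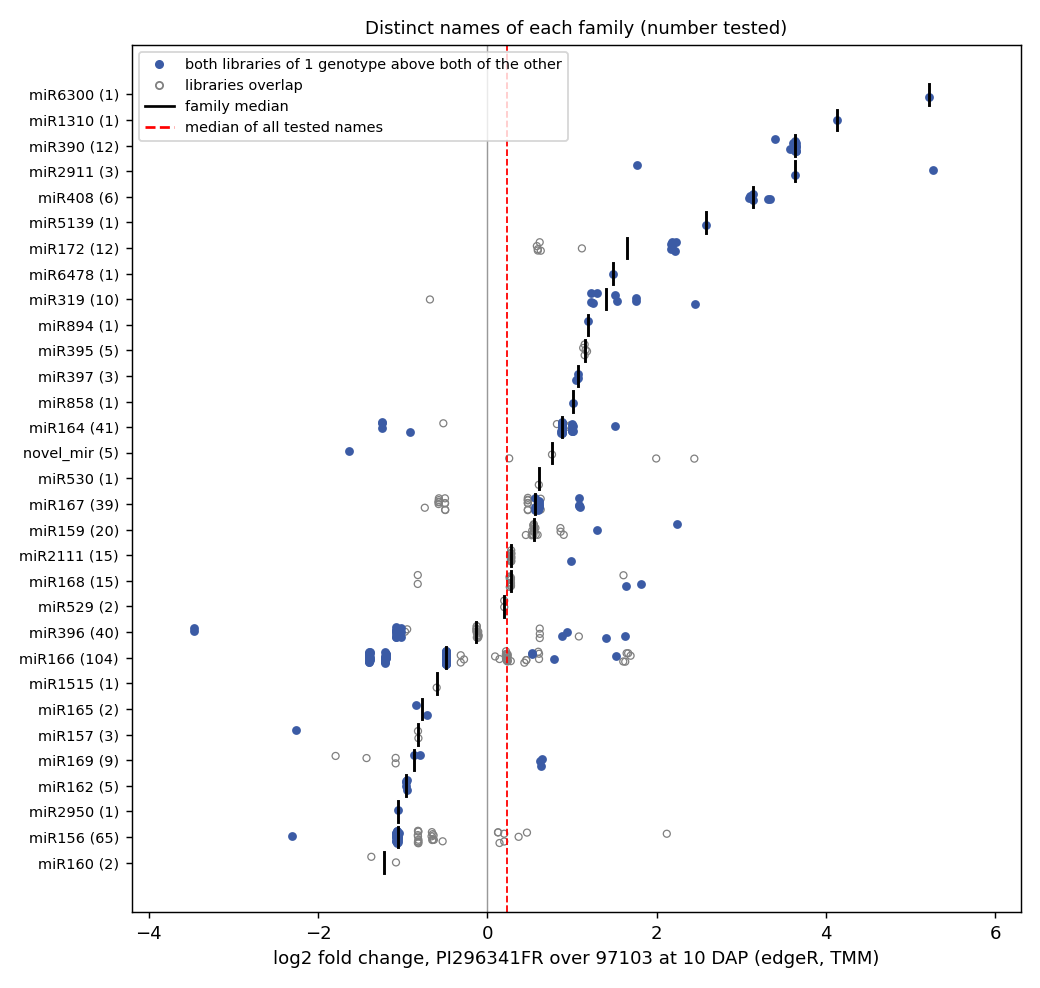
log2 fold change of PI296341FR over 97103 at 10 DAP for each of the 427 tested names, by family, with the number of names in brackets. Filled points are names whose libraries do not overlap between genotypes, bars are family medians, and the dashed line is the median of all names, 0.23; miR390 and miR408 form tight groups above 3, whereas miR164, miR166, miR396 and miR156 spread to both sides of 0.

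The phase change list brings together miR156 and miR157, which hold back SPL transcription factors, and miR172, which acts on AP2-like factors and rises in level as miR156 declines over plant age. The abundant miR156 names were divided, with some below 97103 in both PI296341FR libraries and others overlapping, and none passed the test. ghr-miR156d stood at 2765 and 1277 CPM in 97103 and at 1167 and 752 CPM in PI296341FR (-1.08, SE 0.97, edgeR adjusted p = 0.749), so that the gap between the nearest libraries was small. cme-miR156f, a distinct pattern shared by 10 listed names, differed more, with 832 and 350.0 CPM against 148 and 91.3 CPM (-2.31, SE 1.11, adjusted p = 0.609). aly-miR157d-5p followed nearly the same counts (-2.26, SE 1.11).

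bna-miR156b, an abundant pattern whose profile holds 43 listed names, stood at 2353 and 741 CPM in 97103 and at 954 and 807 CPM in PI296341FR, so both PI296341FR libraries lay above replicate 2 of 97103 (-0.81, SE 0.96, edgeR adjusted p = 0.749). aly-miR157c-5p, the most abundant miR157 name, had the same counts. Scarcer names overlapped too. cme-miR156g stood at 18.5 and 82.2 against 17.3 and 47.0 CPM, and cca-miR156b, with 6.34 and 3.26 against 40.0 and 3.16 CPM, was high in 1 PI296341FR library only. Of 65 distinct miR156 names 39 had both PI296341FR libraries below both 97103 libraries, and 0 above, beside 32.1% and 26.0% of all names. Near copies make up that count. Of the 14 miR156 profiles, the separated ones were those of cme-miR156c (29 distinct names), zma-miR156b-5p (9) and cme-miR156f (1), beside 14.0% of all profiles. The family median was -1.06 beside 0.23 over all names.

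miR172 stood on the other side of that median. cme-miR172a was at 28.9 and 3.86 CPM in 97103 and at 61.3 and 91.7 CPM in PI296341FR (2.23, SE 1.23, edgeR adjusted p = 0.749). cme-miR172b was at 29.2 and 5.34 against 21.3 and 30.4 CPM, which overlap (0.60, SE 1.18). The 12 names therefore form 2 kinds, 6 with separated libraries near 2.2, beside 26.0% of all names tested, and 6 without. The separated names lie in the profiles of ptc-miR172d and cme-miR172a, beside 35.3% of all profiles separated upwards. The 97103 replicates of cme-miR172a were 7.50-fold apart. The list of 80 names had 0 called by edgeR, 2 lower names at an unadjusted p under 0.05 and a median of -0.93.

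Among the organ growth and meristem families, miR166 held most names and high levels. miR165 and miR166 act on class III HD-ZIP transcription factors that set the upper side of organs and vascular pattern. bdi-miR166e stood at 7199 and 8120 CPM in 97103 and at 5269 and 5672 CPM in PI296341FR, and cme-miR166b at 4626 and 4802 against 2208 and 1869 CPM. Replicates of these names lay close together in both genotypes, and the libraries did not overlap. The values were -0.49 (SE 1.21) and -1.21 (SE 1.15), and neither passed (edgeR adjusted p of 0.834 and 0.749).

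cme-miR166e, of a separate profile of 13 distinct names, lay at 2583 and 3378 against 3154 and 3889 CPM (0.24, SE 0.99), so the profiles of miR166 did not all shift alike. Counted within a library, which needs no scaling, cme-miR166e came to 359 and 416 counts per 1000 counts of bdi-miR166e in 97103 and to 599 and 686 in PI296341FR. cme-miR166e was added after its values were seen, so this ratio describes the pair and tests nothing. aly-miR165a-3p rested on 34 and 56 against 2 and 19 counts (-0.71, SE 1.19).

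miR164, which acts on NAC transcription factors, was divided in the same way. cme-miR164a stood at 358 and 488 CPM in 97103 and 165 and 282 CPM in PI296341FR (-0.92, SE 1.06), while cme-miR164c stood at 127 and 158 against 325 and 203 CPM (0.89, SE 0.96). Neither passed edgeR's adjusted threshold (0.749 for both). Per 1000 counts of bdi-miR166e the pattern cme-miR164d came to 21.8 and 19.9 in 97103 and to 74.8 and 44.1 in PI296341FR, whereas cme-miR164a came to 49.7 and 60.2 against 31.3 and 49.7. The balance between these members of miR164 thus differed between the genotypes in all 4 libraries. cme-miR164d was added after its values were seen, and no share over all pairs of names stands beside this. The ratio therefore describes the pair and tests nothing.

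miR396 acts on growth-regulating factors, an action that is not assigned here to its -3p names. gma-miR396a-3p, its most abundant name, was at 1426 and 92.6 CPM in 97103 and at 874 and 1459 CPM in PI296341FR, a 15.4-fold gap between the 97103 replicates. cme-miR396e had 36 and 38 counts in 97103 and 1 in each PI296341FR library, a ratio of 11.7 lower with an exact 95% counting interval of 3.13 to 98.5 (-3.47, SE 1.46, edgeR adjusted p = 0.297). mdm-miR396f had the same counts at 10 DAP. Other members, such as cme-miR396b at 182 and 59.8 against 85.2 and 136 CPM, overlapped.

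miR319, which acts on TCP transcription factors, was scarce in these libraries. rco-miR319b had 8 and 46 counts in 97103 and 6 and 33 in PI296341FR, which is 2.20 and 6.83 against 7.99 and 13.0 CPM (1.22, SE 1.16). With 1 name per profile rco-miR319b stood at -0.18, so no direction is given for it. vvi-miR319g had 2 and 14 against 5 and 21 counts (2.45, SE 1.21, edgeR adjusted p = 0.642). The list of 197 names in 5 measured families had 0 called by edgeR, 1 higher and 2 lower at an unadjusted p under 0.05, and a median of -0.12.

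The MYB regulators did not separate as a group. ptc-miR159a, of the family that acts on GAMYB-type factors, stood at 197 and 528 against 268 and 826 CPM. A rarer member, aly-miR159c-3p, lay at 9.09 and 11.0 against 49.3 and 45.8 CPM (2.24, SE 1.20, edgeR adjusted p = 0.749), on 33 to 116 counts. cme-miR858 had 8 and 14 against 2 and 14 counts. The list of 21 names had 0 called, 0 at an unadjusted p under 0.05 and a median of 0.55.

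In the miRNA pathway list, miR168 acts on AGO1 and miR162 on DCL1, the core proteins that load and cut miRNAs. ccl-miR168 had the highest mean level of all tested names over these 4 libraries. It stood at 63515 and 3572 CPM in 97103, a 17.8-fold gap between replicates, and at 36179 and 45279 CPM in PI296341FR, which lie between them. A less abundant member, nta-miR168a, was at 299 and 182 against 657 and 1034 CPM (1.81, SE 1.10, edgeR adjusted p = 0.749). osa-miR162a was at 149 and 74.0 against 42.6 and 72.7 CPM (-0.95, SE 1.21). Of 20 names 0 were called and 0 had an unadjusted p under 0.05, with a median of 0.27.

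The phosphate and sulphate list and the list of phloem-mobile families, taken as a marker of vascular tissue in flesh, held the same 2 measured families, miR395 and miR2111. miR395 acts on sulphate transporters and ATP sulphurylases, and miR2111 moves from shoot to root in legumes. cme-miR395b stood at 23.1 and 5.34 against 21.3 and 41.1 CPM, and mtr-miR2111l at 274 and 395 against 534 and 281 CPM, both overlapping. Summed over these names, the phloem-mobile level was 298 and 400 CPM in 97103 and 555 and 322 CPM in PI296341FR, with miR398, miR399 and miR827 not measured. Of 20 names 0 were called and 0 had an unadjusted p under 0.05, and the median was 0.28. The ripening regulator list, which shares miR156, miR157, miR164 and miR172, had 0 of 121 called, 2 lower at an unadjusted p under 0.05 and a median of -0.64. No name of the NBS-LRR defence list was tested.

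Each of the 5 predicted names differed more between the PI296341FR replicates than between genotypes on the log2 scale. novel_mir_57 stood at 258 and 480 CPM in 97103 and at 3615 and 409 CPM in PI296341FR (2.45, SE 1.00, edgeR adjusted p = 0.297). novel_mir_31 was at 1195 and 664 against 557 and 41.9 CPM (-1.64, SE 1.09), and novel_mir_172 at 8.82 and 48.7 against 216 and 15.8 CPM. All 5 novel_mir names were higher in PI296341FR replicate 1 than in replicate 2, by 6.46-fold to 13.7-fold. In 97103 the gaps were 1.48-fold to 5.52-fold, with replicate 1 the higher for 2 of the names.

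How far replicates of 1 genotype lie apart sets what could be seen. The median gap between replicates, on the log2 scale without sign, was 1.11 in 97103 and 0.53 in PI296341FR, and the median genotype difference was 0.89. More than 1 log2 unit separated the replicates for 242 of 427 names in 97103 and for 66 in PI296341FR. In 97103 replicate 1 was the higher one for ccl-miR168, gma-miR160a-3p, gma-miR396a-3p, cme-miR390b, nta-miR2911, cme-miR172a and cme-miR395b. Replicate 2 was the higher one for aly-miR397a-5p, rco-miR319b, cme-miR408, ptc-miR159a and ccl-miR167a.

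Names that carry an arm suffix differed in how they set the 97103 replicates apart. aly-miR166a-5p came to 2.02% of the count of cme-miR166b in 97103 replicate 1 and to 0.0958% in replicate 2, and to 3.26% and 3.36% in PI296341FR. gma-miR396i-3p came to 784% and 155% of cme-miR396b in 97103 and to 1020% and 1080% in PI296341FR. aly-miR168a-3p came to 5.46% and 6.15% of ccl-miR168 in 97103, which is close between replicates, and to 2.99% and 2.23% in PI296341FR. The Spearman correlation over the 427 names, many of them copies, was 0.941 between the 97103 libraries, 0.952 between the PI296341FR libraries and 0.901 to 0.929 across genotypes.

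**Figure D3:**
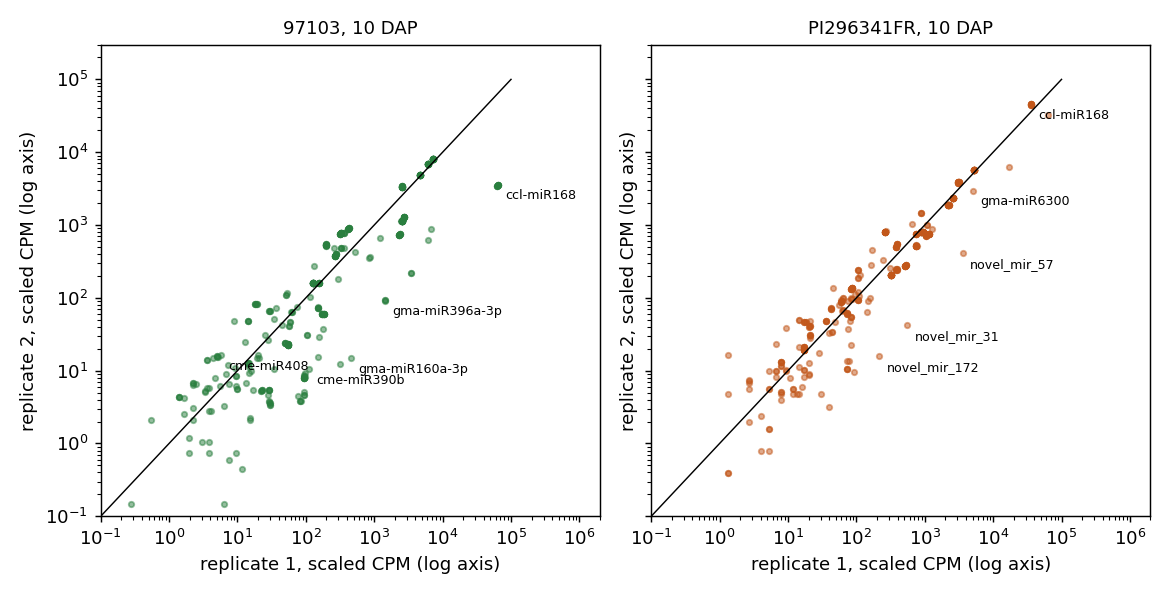
Replicate 2 against replicate 1 at 10 DAP for the 427 tested names, as TMM-scaled CPM on log axes, with 97103 on the left, PI296341FR on the right and the line of equal levels. In 97103 ccl-miR168, gma-miR396a-3p, gma-miR160a-3p and cme-miR390b fall 10.7-fold to 31.0-fold below the line, and in PI296341FR the novel_mir names fall 6.46-fold to 13.7-fold below it.

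Over all names, 111 had both PI296341FR libraries above both 97103 libraries and 137 had both below, which is 26.0% and 32.1% of those tested and 58.1% together. Without scaling factors these numbers were 80 and 117. The TMM factors of the 97103 libraries were 0.79 and 1.55. Over 136 tested profiles 48 were higher in this way (35.3%) and 19 lower (14.0%). An exact permutation of 2 against 2 libraries cannot go below p = 0.333, so single names were not tested that way. Of the 30 family representatives, 14 were separated upwards, 6 downwards and 10 overlapped. The direction of differences, also of some above 1 on the log2 scale, depends on which names set the scaling. With 1 name per profile every value fell, by a median of 1.09 on the log2 scale over the 135 shared names. Several values changed sign, among them cme-miR319a from 1.23 to -0.15.

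Ratios of 2 names within a library need no scaling, a view chosen after seeing the data. Several of the names below were picked for large separated differences in these same 4 libraries. Their counts therefore describe them and test nothing, and no share over all pairs of names stands beside them. Against 34 other representatives, gma-miR6300 was relatively higher in both PI296341FR libraries for 32, peu-miR2911 for 31, han-miR1310 for 27, nta-miR2911 for 25, cme-miR390b for 25 and cme-miR408 for 23. cme-miR396e was relatively lower for 32, cme-miR156f for 29 and ghr-miR156d for 21, while ccl-miR168 was higher for 5 and lower for 4. Per 1000 counts of bdi-miR166e, gma-miR6300 came to 15.7 and 12.5 in 97103 and to 950.0 and 522 in PI296341FR, and cme-miR408 to 0.804 and 2.01 against 20.0 and 21.2. bdi-miR166e was itself relatively lower in PI296341FR for 17 of the 34 and higher for 0.

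**Figure D4:**
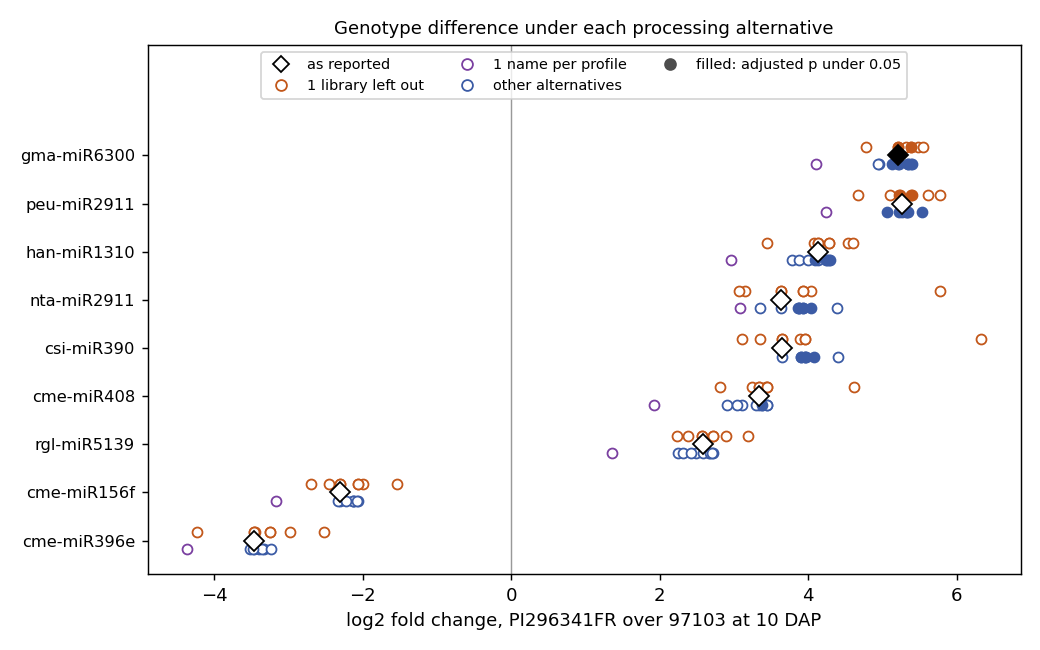
log2 fold change at 10 DAP of 9 names as reported (diamonds), with 1 library left out (orange), with 1 name per profile (purple) and under the other alternatives (blue), filled where the adjusted p was under 0.05. The sign of all 9 stayed the same under every alternative shown, and gma-miR6300 ran from 4.10 to 5.54.

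Whether the genotype difference at 10 DAP was unlike that at 30 DAP was tested as an interaction in the same fit, in which the ages share no library. edgeR called 8 of 427 names (1.87%), all with a larger difference at 30 DAP. These were the 6 names of miR408 and 2 of miR167. cme-miR408 stood at 0.576 and 0.805 CPM in 97103 and at 947 and 54.9 CPM in PI296341FR at 30 DAP, a difference of 9.46 (SE 1.70) beside 3.34 at 10 DAP, and an interaction of 6.12 (SE 1.82, edgeR adjusted p = 0.0481). 97103 had less cme-miR408 than PI296341FR in every library at both ages, and the 30 DAP replicates of PI296341FR were far apart. In edgeR's fit without scaling factors the interaction call held, at 6.66 (adjusted p = 0.00456). RLE factors (adjusted p = 0.0612), no filter (0.0507), a minimum count of 50 (0.239), all copies (0.141), 1 name per profile (0.0542), 1 name per family (0.455) and the replicate block (0.129) ended this call.

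cme-miR167e had 13 and 93 against 13 and 26 counts at 10 DAP, a difference of 0.63 (SE 1.19), and 5 and 2 against 69 and 7 at 30 DAP, with an interaction of 7.68 (SE 1.88, edgeR adjusted p = 0.0121). Without replicate 1 of PI296341FR at 30 DAP the interaction was 2.01 (adjusted p = 0.521) for cme-miR167e and 2.82 (adjusted p = 0.433) for cme-miR408. Without replicate 2 of 97103 at 10 DAP it was 5.22 and 4.01 (adjusted p = 0.334 for both), without replicate 2 of 97103 at 30 DAP 7.35 and 6.36 (adjusted p = 0.105 for both), and without either PI296341FR library at 10 DAP neither was called (adjusted p of 0.584 to 0.796). cme-miR408 also lost its call without replicate 1 of 97103 at 30 DAP (5.89, adjusted p = 0.0812) and without replicate 2 of PI296341FR at 30 DAP (6.05, adjusted p = 0.171).

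The other families are given as values. gma-miR6300 stood at 33.2 and 117 CPM in 97103 and at 10873 and 126 CPM in PI296341FR at 30 DAP, so replicate 2 of PI296341FR lay just above 97103. It differed by 5.21 at 10 DAP and 6.19 at 30 DAP, han-miR1310 by 4.13 and 3.93, and nta-miR2911 by 3.64 and 3.57. Their interactions were 0.98, -0.20 and -0.06 with edgeR adjusted p-values of 0.699 to 0.974. cme-miR390b differed by 3.40 and 6.54 (interaction adjusted p = 0.502), and vvi-miR2950-5p by -1.05 and 4.41 (interaction adjusted p = 0.0977).

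**Figure D5:**
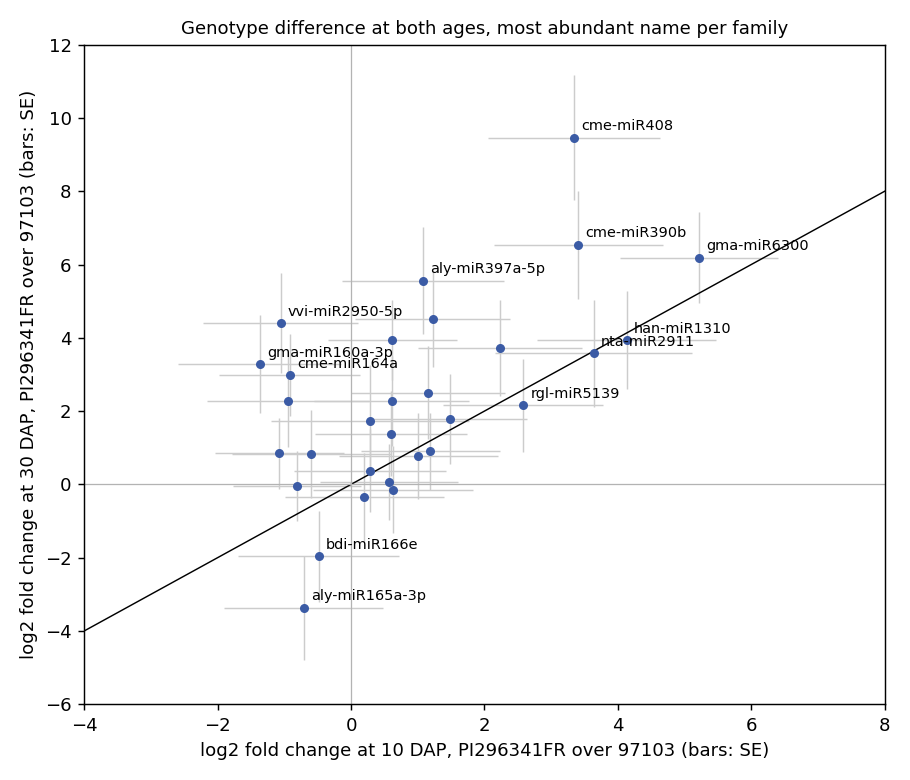
log2 fold change of PI296341FR over 97103 at 30 DAP against that at 10 DAP for the most abundant name of each of the 30 families, with SE bars and the line of equal differences. cme-miR408 lies at 3.34 and 9.46, above the line, while gma-miR6300, han-miR1310 and nta-miR2911 lie near it.

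The 3 libraries of 97103 at 10 DAP in the separate set over fruit age list 18 of the same names, which allows a look at 97103 in other libraries. As a share of the counts of these 18 names, cme-miR159a took 68.7%, 65.0% and 67.7% there, but 1.18% and 4.47% in the 97103 libraries compared here and 3.12% and 10.9% in PI296341FR. cme-miR319c took 10.5%, 12.2% and 10.2% there and 0.0232% and 0.0477% in the 97103 libraries here. cme-miR166b took 4.11%, 3.92% and 4.09% there and 27.8% and 39.6% here. The Spearman correlation of mean shares over the 18 names, some of which share counts, was -0.257 between the 97103 groups of the 2 sets and -0.20 between PI296341FR and that set. The sets thus rank the same names differently within 1 cultivar and age.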

How the data were processed

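Small RNA libraries were made from flesh RNA of under 100 nt, per the labels' protocols. BWA and fastp were used, per the submitters' processing notes. How reads were counted, and against which genome and miRNA set, is not given in the sources used here. The authors deposited whole-number counts per miRNA name for each library, without normalization. 1 name per distinct count pattern over the 8 libraries of the genotype set was kept within a family, a melon name where there was one. Counts were fitted with edgeR 4.0.16 in R 4.3.3 (filterByExpr at a minimum count of 10, TMM factors, quasi-likelihood F test, group means of all 8 libraries, no further term), and p-values were adjusted over 427 names. The common dispersion was 0.464, and the estimated prior degrees of freedom were infinite, so the spread of a name is that of the trend over all names. SE is the log2 fold change divided by the root of F. DESeq2 1.42.0 was an alternative. Replicate counts differed beyond sampling noise in each group. Intervals cover counting error only.

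Named were the called names, the most abundant name of each listed family, separated names with at least 10 counts and large changes (up to 10 families each way), the novel_mir names and the names of both sets. han-miR2911, bna-miR156b, gma-miR396i-3p, aly-miR168a-3p, cme-miR164d, cme-miR166e, cme-miR396b, mdm-miR396f, cca-miR156b, aly-miR166a-5p and the names called in the interaction were added after their values were seen. The families, lists and comparison were chosen with earlier results of these data known. Sequences were not analysed here.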

Additional observations from a re-analysis of the deposited data

Results flagged for a closer look

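The 8 names called in the interaction of genotype and age differed between 10 and 30 DAP by the test of the difference itself, in edgeR's fit. On the log2 scale the interaction was 7.68 for cme-miR167e and 7.54 for aqc-miR167, which differ by 1 count in 2 libraries. For miR408 it was 6.32 for nta-miR408, 6.21 for ahy-miR408-3p, 6.20 for smo-miR408 and for cca-miR408, and 6.12 for gma-miR408c-3p and cme-miR408. All 6 miR408 names had edgeR adjusted p-values of 0.0481, close to the threshold. At 30 DAP the PI296341FR replicates stood at 161 and 1.58 CPM for cme-miR167e and at 947 and 54.9 CPM for cme-miR408. The part of that library in the interaction is seen in the value without it, 2.01 for cme-miR167e and 2.82 for cme-miR408.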

How the results depend on the processing

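Names called at 10 DAP numbered 16 with RLE factors, 16 without factors, 18 by DESeq2 and 18 in a fit of the 4 libraries alone, all higher in PI296341FR, and 2 without the filter. By edgeR they numbered 0 with 1 name per profile (16 of 135 at an unadjusted p under 0.05) and 0 with 1 name per family (2 of 35). Leaving out 1 library gave 0 to 2, with 0 for each library at 10 DAP and 17 to 39 at an unadjusted p under 0.05. Interaction calls numbered 2 with RLE factors, without the filter, at a minimum count of 50, with all copies and with 1 name per profile, 0 with 1 name per family (3 of 35 at an unadjusted p under 0.05) and by DESeq2 (101, with no adjusted p for cme-miR408 or cme-miR167e), and 0 to 14 with 1 library left out. DESeq2 put the interaction at 5.44 (SE 1.51) for cme-miR408 and at 6.95 (SE 1.91) for cme-miR167e. As both lacked an adjusted p there, its 0 calls do not speak of these names. Separated names numbered 634 of 1261 with all copies and 60 of 135 with 1 name per profile (24 higher and 36 lower). With 1 name per family they numbered 20 of 35. Relative to the fit reported, RLE factors moved all values by a median of 0.11 and the minimum count of 50 by 0.17.

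Replicate numbers share no source in the labels, and same-numbered deviations correlated at -0.441 to 0.535 between groups (0.0201 between the 2 groups at 10 DAP). With the replicate block 2 names were called at 10 DAP, gma-miR6300 and peu-miR2911, and 2 in the interaction.

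Values that were not called changed sign as follows. With 1 name per profile ccl-miR167a stood at -0.80, ccl-miR168 at -0.14, cme-miR159a at -0.88, cme-miR167c at -0.28, cme-miR319a at -0.15, cme-miR530b at -0.74, cme-miR858 at -0.10, mtr-miR2111l at -0.97, novel_mir_105 at -0.15, novel_mir_93 at -1.01 and rco-miR319b at -0.18. With 1 name per family ccl-miR168 stood at -0.055, with all copies cme-miR2111a at -0.12, mtr-miR2111l at -0.12 and novel_mir_93 at -0.30, and with the replicate block novel_mir_93 at -1.16. Over the fits with 1 library left out, aly-miR157c-5p from -1.07 to 0.27, ccl-miR168 from -0.29 to 3.54, cme-miR156g from -1.54 to 1.18, cme-miR159a from -0.48 to 1.80, cme-miR164b from -1.07 to 0.54, cme-miR167b from -0.92 to 0.51, cme-miR2111a from -0.23 to 0.90 ran across 0. The same held for cme-miR530b from -0.26 to 1.59, gma-miR160a-3p from -2.38 to 2.66, mtr-miR2111l from -0.25 to 0.91, novel_mir_105 from -1.08 to 1.61, novel_mir_172 from -0.87 to 4.03, novel_mir_93 from -2.16 to 1.14, ptc-miR159a from -0.44 to 1.83. The causes were not tested. The 30 DAP leave-outs were chosen after seeing the data. With 2 libraries a group, a lone library left in a group was assumed to vary like the others. Depth limits the names under 50 counts.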
